A study of Mus musculus with 10 samples.

Results

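The 10 genes described here serve the response of the endoplasmic reticulum (ER) to unfolded protein, and they comprise the CREB3-type transcription factors *Creb3l1*, *Creb3l2* and *Creb3*, the stress transcription factors *Atf6*, *Xbp1*, *Atf4* and *Ddit3*, and the ER genes *Hspa5*, *Hsp90b1* and *Herpud1*. They were found by symbol among the 55359 genes of the table. The set was chosen by the fall of *Creb3l1* between the same 2 groups of libraries, and for the load that matrix genes place on the secretory pathway, so the values of *Creb3l1* are given as a description, without a test. The other 9 genes were tested.

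RNA was sequenced from C2C12, a single mouse myoblast line whose cells fuse into myotubes when serum is lowered. Cells carried either a control siRNA (si-Control, 5 libraries) or an siRNA against *Fndc1* (si-*Fndc1*, 5 libraries), at 100 nM. Per the labels both groups were grown in 20% foetal bovine serum and collected after 4 days in 2% horse serum, whereas the series description gives a harvest at 48 h. A single siRNA sequence is given for the knockdown, so effects of lower *Fndc1* and of that siRNA itself cannot be told apart. The labels do not say whether the 5 libraries of a group came from separate cultures, and the paper's general statement on independent experiments does not name these libraries, so the p-values measure the spread between these libraries, which may be technical.

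The total count was 66771605 to 75995168 per si-Control library and 56332844 to 72839369 per si-*Fndc1* library. *Fndc1* (ENSMUSG00000071984) had 24.7 to 29.6 FPKM in si-Control and 18.7 to 23.5 FPKM in si-*Fndc1*, and no library of the knockdown group reached the lowest control library. The ratio of its means was 0.752. Here FPKM is the authors' value, by its name a count per transcript length and library size. How it was computed is not given. The 10 myoblast and myotube markers summed to 4527 to 5085 FPKM in si-Control and 4318 to 5114 FPKM in si-*Fndc1*, where 2 of the 10 were higher in every library than in every si-Control library. The 5 macrophage markers summed to 4.30 to 5.05 FPKM in si-Control and 3.81 to 4.94 FPKM in si-*Fndc1*, with *Ptprc* and *Adgre1* at 0 counts throughout. The 3 endothelial markers summed to at most 0.0334 FPKM in any library, with *Cdh5* at 0 counts throughout. The 5 fibroblast markers summed to 659.9 to 708 FPKM in si-Control and 616.6 to 656.1 FPKM in si-*Fndc1*, where 2 of the 5 were higher and 1 lower in every library. The 14 hepatocyte markers summed to 0.183 to 6.46 FPKM in si-Control but to 49.1 to 178 FPKM in si-*Fndc1*, and each of the 14 was higher in every si-*Fndc1* library than in every si-Control library. Liver transcripts therefore moved with the groups, and their part in the results was not tested. Some values are given without si-*Fndc1* libraries 2, 3 and 4, the richest in them. The kept si-*Fndc1* libraries 1 and 5 still summed to 104 and 49.1 FPKM, so those values cannot decide that part.

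Cells that secrete much protein sense misfolded protein in the ER through PERK, IRE1 and ATF6. PERK slows translation and favours translation of ATF4, which can raise *Ddit3*; IRE1 splices *Xbp1* mRNA; and ATF6 travels to the Golgi, where site-1 and site-2 proteases release its transcription factor part. CREB3-type proteins are activated by the same proteases, and CREB3L1 (OASIS) is known for driving collagen genes in bone. Myoblasts use this pathway while they fuse. The table counts all transcripts of a gene together, so spliced *Xbp1* is not separated from the unspliced form, and protein cleavage, translation and phosphorylation are not seen.

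Among the 9 tested genes, *Creb3l2* and *Creb3* fell and *Hsp90b1* and *Herpud1* rose in si-*Fndc1*, by 0.20 to 0.29 on the log2 scale in size. *Atf4*, *Atf6*, *Xbp1*, *Ddit3* and *Hspa5* did not pass the test. The 4 genes called are 44.4% of the 9, in edgeR's quasi-likelihood test with a Benjamini-Hochberg adjusted p under 0.05. Over the 13548 genes tested, 34.4% were called, with 17.3% higher and 17.2% lower in si-*Fndc1*, and 9 genes are too few to set apart from that share. The FPKM values of the groups did not overlap in 3 of the 9 genes, 1 above and 2 below, against 25.1% of the genes tested. The median log2 fold change was −0.06 over the 9 genes and 0.00 over the genes tested.

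**Figure D1:**
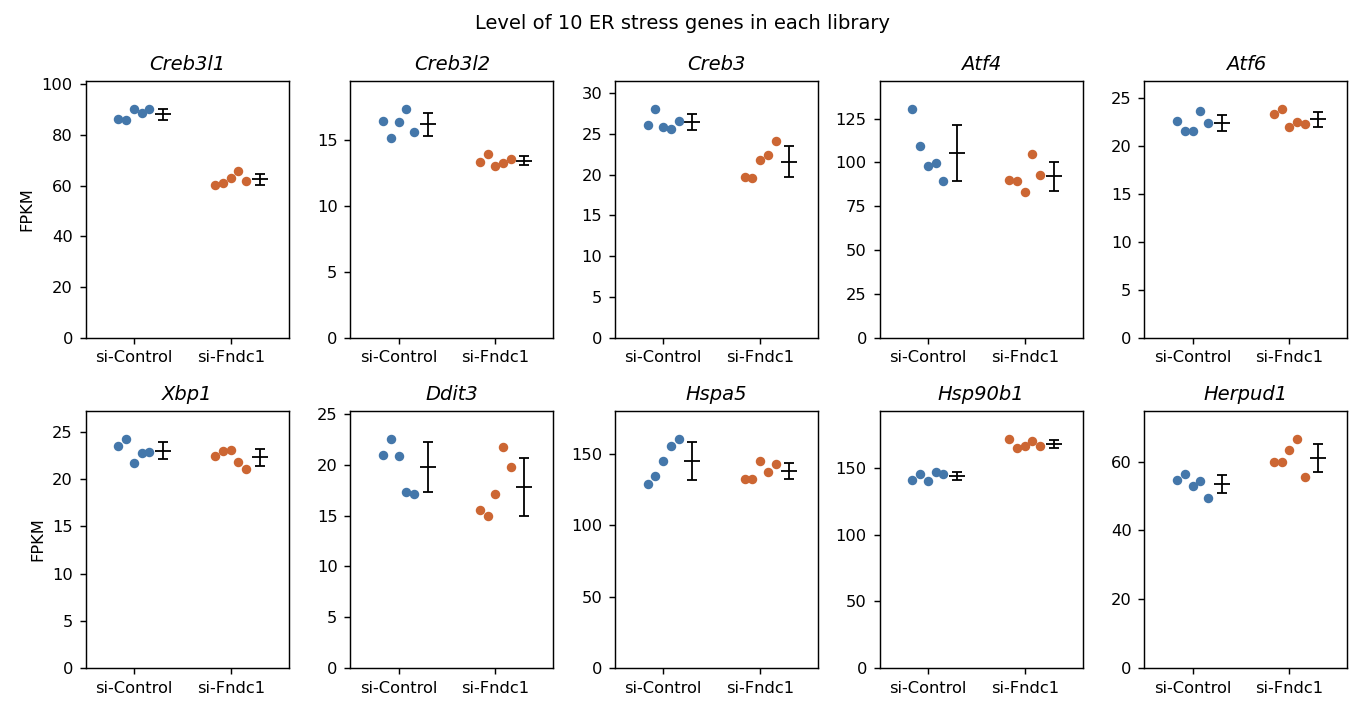
FPKM of each of the 10 genes (vertical axes from 0, a scale for each gene) in the 5 si-Control (blue) and 5 si-Fndc1 (orange) libraries, with bars for the mean and SD of each group. Points of the groups are apart for Creb3l1, Creb3l2, Creb3 and Hsp90b1, and mix for Atf4, Atf6, Xbp1, Ddit3 and Hspa5, while 4 of the 5 si-Fndc1 points of Herpud1 lie above every si-Control point.

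Transcript composition moved with the difference between the groups. Across the 11185 tested genes with a known GC content and length, log2 fold change and GC content had a Spearman correlation of −0.523, given as a description because genes share the libraries. A second fit therefore removed the trend with GC content and length from every library, and the correlation was −0.006 there. It called 22.7% of the genes, 11.3% higher and 11.4% lower in si-*Fndc1*. In it, 3 of the 9 genes kept their call (*Creb3l2*, *Creb3* and *Herpud1*), the call of *Hsp90b1* was lost, and the median was −0.13. Values of this fit are given below as those with the offset. For *Fndc1* itself the log2 fold change was −0.40 (edgeR adjusted p = 0.000934), and −0.22 with the offset (edgeR adjusted p = 0.0104).

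*Creb3l1* (ENSMUSG00000027230) lies on chromosome 2, positions 91812673 to 91854847, minus strand. Coordinates of genes are those of the authors' table, which names no build; GRCm39 is the build in the submitters' processing notes. *Creb3l1* had 86.2, 85.9, 90.4, 88.5 and 90.1 FPKM in si-Control libraries 1 to 5. In si-*Fndc1* libraries 1 to 5 it had 60.4, 61.2, 63.0, 65.9 and 61.8 FPKM. The libraries of a group lay close together, and the highest si-*Fndc1* library stayed well under the lowest si-Control library. The means were 88.2 ± 2.15 and 62.5 ± 2.13 FPKM (SD, n = 5 each), a ratio of 0.708. The log2 fold change was −0.49, and −0.34 with the offset, *Creb3l1* transcripts being 59.5% GC. Without the 3 si-*Fndc1* libraries highest in hepatocyte transcripts it was −0.54. In bulk RNA, fewer cells that express a gene and less of its RNA per cell cannot be told apart.

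*Creb3l2* (ENSMUSG00000038648; chromosome 6, 37304190 to 37419081, minus strand) encodes the factor known for collagen secretion in cartilage. It had 16.5, 15.1, 16.4, 17.4 and 15.7 FPKM in si-Control libraries 1 to 5, against 13.3, 14.0, 13.0, 13.3 and 13.6 FPKM in si-*Fndc1* libraries 1 to 5. No si-*Fndc1* library reached the lowest si-Control library. The mean went from 16.2 ± 0.864 to 13.4 ± 0.362 FPKM (SD, n = 5 each), the lowest level of the 10 genes in both groups. *Creb3l2* fell by 0.26 on the log2 scale (SE 0.04, edgeR adjusted p = 0.000482; two-sided exact permutation p of the FPKM difference 0.00794, the smallest that 5 against 5 libraries can give). With the offset the fall was 0.21 in size (log2 fold change −0.21, edgeR adjusted p = 0.000869).

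*Creb3* (ENSMUSG00000028466; chromosome 4, 43562813 to 43566797, plus strand), also called Luman, is the founding gene of the family. Its si-Control libraries 1 to 5 had 26.1, 28.1, 25.8, 25.6 and 26.6 FPKM. After knockdown the values were 19.8, 19.6, 21.8, 22.4 and 24.1 FPKM in libraries 1 to 5. The groups did not overlap, although si-*Fndc1* library 5 came to within 1 SD of its group from the lowest si-Control library. *Creb3* fell by 0.29 on the log2 scale (SE 0.06, edgeR adjusted p = 0.00309; exact permutation p = 0.00794), from 26.4 ± 0.985 to 21.6 ± 1.89 FPKM (SD, n = 5 each). With the offset its log2 fold change was −0.30 (edgeR adjusted p = 0.00161).

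The remaining family genes, sensors and proteases formed a list of 7, of which 5 were expressed enough to be tested and 2 fell, 40% against the 34.4% of all genes tested. *Atf6b*, the close relative of *Atf6*, had 19.1 ± 1.18 FPKM in si-Control and 14.4 ± 0.766 FPKM in si-*Fndc1* (SD, n = 5 each), a log2 fold change of −0.41 (edgeR adjusted p = 0.000265), and −0.22 with the offset (edgeR adjusted p = 0.00882). *Ern1*, which encodes IRE1, had 8.28 ± 0.287 and 6.71 ± 0.498 FPKM, a log2 fold change of −0.29 (edgeR adjusted p = 0.00127), and −0.21 with the offset (edgeR adjusted p = 0.00654). Both genes were lower in each si-*Fndc1* library than in each si-Control library. *Eif2ak3*, which encodes PERK, had means of 5.20 and 5.23 FPKM (log2 fold change 0.02, 95% interval −0.09 to 0.12, edgeR adjusted p = 0.821). The site-1 protease gene *Mbtps1* had means of 12.8 and 12.7 FPKM (log2 fold change 0.00, edgeR adjusted p = 0.952), and with the offset it was called higher (log2 fold change 0.15, edgeR adjusted p = 0.0144). The site-2 protease gene *Mbtps2* had means of 3.01 and 3.10 FPKM (log2 fold change 0.05, edgeR adjusted p = 0.471).

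The other 2 listed genes were below the 0.5 FPKM that a gene needed as its mean to be tested. *Creb3l3*, the liver form of the family (CREBH), had 0.0652, 0.0392, 0.118, 0 and 0.109 FPKM in si-Control libraries 1 to 5, the fourth of which had no count. In si-*Fndc1* libraries 1 to 5 it had 0.168, 0.341, 0.295, 0.261 and 0.113 FPKM, from 22 to 85 counts. The 3 libraries with the most *Creb3l3* were also the 3 with the largest hepatocyte sums, 178, 170 and 177 FPKM in libraries 2, 3 and 4. *Creb3l4* had 0.0261 to 0.299 FPKM in si-Control and 0.0358 to 0.229 FPKM in si-*Fndc1*, ranges that overlapped.

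*Atf6* (ENSMUSG00000026663; chromosome 1, 170532243 to 170695340, minus strand) encodes the ER sensor that becomes a transcription factor. It had 22.7, 21.6, 21.6, 23.7 and 22.5 FPKM in si-Control libraries 1 to 5. In si-*Fndc1* libraries 1 to 5 it had 23.3, 23.9, 22.0, 22.5 and 22.3 FPKM. The groups overlapped almost wholly, and the means were 22.4 ± 0.851 and 22.8 ± 0.786 FPKM (SD, n = 5 each). The log2 fold change of 0.03 (SE 0.04, edgeR adjusted p = 0.485; exact permutation p = 0.429) had a 95% interval of −0.04 to 0.11, which does not reach the −0.41 of *Atf6b*.

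*Xbp1* (ENSMUSG00000020484; chromosome 11, 5470659 to 5475893, plus strand), whose spliced mRNA encodes the factor made through IRE1, had 23.5, 24.3, 21.7, 22.8 and 22.8 FPKM in si-Control libraries 1 to 5. It had 22.5, 23.0, 23.1, 21.8 and 21.1 FPKM in si-*Fndc1* libraries 1 to 5. Of the si-*Fndc1* libraries only library 5 was under the whole si-Control range. Its means were 23.0 ± 0.940 and 22.3 ± 0.865 FPKM (SD, n = 5 each), and the log2 fold change was −0.04 (95% interval −0.13 to 0.05, edgeR adjusted p = 0.503; exact permutation p = 0.230).

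*Atf4* (ENSMUSG00000042406; chromosome 15, 80139385 to 80141742, plus strand) encodes the factor translated when PERK and related kinases are active. It had 130.8, 109.3, 97.8, 99.6 and 89.6 FPKM in si-Control libraries 1 to 5. In si-*Fndc1* libraries 1 to 5 it had 90.0, 89.3, 82.9, 105.1 and 93.0 FPKM. Its si-Control libraries spread widely, library 1 being the highest of all 10, and si-*Fndc1* libraries 2 and 3 were under the whole si-Control range. The mean was 105.4 ± 15.8 FPKM in si-Control and 92.1 ± 8.15 FPKM in si-*Fndc1* (SD, n = 5 each). The log2 fold change was −0.19 (SE 0.10, 95% interval −0.40 to 0.03, edgeR adjusted p = 0.160; exact permutation p = 0.127), and with the offset also −0.19 (edgeR adjusted p = 0.187). Without si-Control library 5, the lowest of its group, the difference in mean FPKM was −17.3 with an unadjusted exact permutation p of 0.0476. The edgeR test did not call *Atf4* in that setting (edgeR adjusted p = 0.0794). Without si-Control library 1, the highest, the difference was −7.03 (exact permutation p = 0.254). In 10 of the 11 alternatives run, the permutation p stayed above 0.05.

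*Ddit3* (ENSMUSG00000025408; chromosome 10, 127126643 to 127132157, plus strand) encodes CHOP, the factor linked to cell death under lasting stress. It had 21.0, 22.6, 20.9, 17.3 and 17.1 FPKM in si-Control libraries 1 to 5, and 15.6, 14.9, 17.1, 21.7 and 19.7 FPKM in si-*Fndc1* libraries 1 to 5. Both groups held libraries near 17 FPKM and libraries near 21 FPKM. The means of 19.8 ± 2.43 and 17.8 ± 2.87 FPKM (SD, n = 5 each) gave a log2 fold change of −0.14 with a 95% interval of −0.40 to 0.12 (edgeR adjusted p = 0.378; exact permutation p = 0.262), the widest interval of the 10 genes. *Ddit3* overlaps *Mars1* on the opposite strand, which had 396% of its mean count, and whether the counting used strand is not given in the sources used here, so its level is uncertain. A second identifier with the same symbol (ENSMUSG00000116429) had 1 count in each library.

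*Hspa5*, *Hsp90b1* and *Herpud1* are the classical targets of the ER stress factors, and are shown here with their promoters because these hold the ER stress response elements. ERSE is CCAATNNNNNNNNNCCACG, known to be bound by NF-Y and by ATF6 or XBP1, and ERSE-II is ATTGGNCCACG. Both were searched on both strands in the 250 bases before the start to 50 bases after it in RefSeq promoters of GRCm38.p6. Only exact matches to these letters were counted, so near matches are not marked. ERSE occurred in 0.119% and ERSE-II in 0.0365% of the 32851 promoters. Of the 10 genes, 8 had a promoter entry, and 3 of these held an element. Below are the 250 bases before each start, 5′ to 3′ in the direction of the gene, with the elements in capitals. *Hspa5* is chr2:34771840-34772089 on the plus strand, *Hsp90b1* is chr10:86705445-86705694 on the minus strand and *Herpud1* is chr8:94386179-94386428 on the plus strand.
Hspa5: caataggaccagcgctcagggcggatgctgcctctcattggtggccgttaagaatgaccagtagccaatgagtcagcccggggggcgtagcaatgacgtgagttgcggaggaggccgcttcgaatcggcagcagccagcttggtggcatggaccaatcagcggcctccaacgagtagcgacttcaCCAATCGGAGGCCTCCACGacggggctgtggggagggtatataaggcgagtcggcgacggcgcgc
Hsp90b1: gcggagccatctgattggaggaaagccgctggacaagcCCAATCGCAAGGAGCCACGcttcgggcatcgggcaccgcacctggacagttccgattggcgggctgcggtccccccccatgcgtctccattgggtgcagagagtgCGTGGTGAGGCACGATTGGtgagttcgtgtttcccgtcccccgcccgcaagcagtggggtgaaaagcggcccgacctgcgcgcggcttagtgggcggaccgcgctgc
Herpud1: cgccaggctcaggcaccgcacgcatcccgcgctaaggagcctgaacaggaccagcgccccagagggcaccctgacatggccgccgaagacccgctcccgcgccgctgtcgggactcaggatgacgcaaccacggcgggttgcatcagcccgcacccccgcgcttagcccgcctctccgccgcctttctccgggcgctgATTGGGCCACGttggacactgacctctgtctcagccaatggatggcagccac
In *Hspa5* the single exact match to ERSE begins at −65 from the start. In *Hsp90b1* an ERSE begins at −212 and another, on the opposite strand, at −107. *Herpud1* has an ERSE-II beginning at −52. No exact match to the whole of either element occurred in the promoters of *Creb3l2*, *Creb3*, *Atf4*, *Xbp1* and *Ddit3*. Over all genes with either element, 24 were tested, of which 5 (20.8%) rose, 3 (12.5%) fell and 16 were not called, near the 17.3% and 17.2% of the genes tested. Their median log2 fold change was 0.07, and with the offset 3 were higher and 4 lower of 23, against 11.3% and 11.4% of all genes.

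*Hspa5* (ENSMUSG00000026864; chromosome 2, 34661982 to 34667559, plus strand) encodes BiP, the chaperone that holds the sensors inactive. It had 128.8, 134.3, 144.8, 155.1 and 160.5 FPKM in si-Control libraries 1 to 5. In si-*Fndc1* libraries 1 to 5 it had 132.3, 132.6, 145.1, 137.3 and 142.8 FPKM. All 5 si-*Fndc1* libraries lay inside the range of the si-Control libraries. The mean went from 144.7 ± 13.4 to 138.0 ± 5.84 FPKM (SD, n = 5 each), and the log2 fold change was −0.06 (95% interval −0.19 to 0.07, edgeR adjusted p = 0.475; exact permutation p = 0.341). With the offset it was −0.13 (edgeR adjusted p = 0.140).

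*Hsp90b1* (ENSMUSG00000020048; chromosome 10, 86526073 to 86541373, minus strand) encodes GRP94, a chaperone of integrins and other secreted and membrane proteins. It had 141.6, 145.6, 140.4, 147.3 and 145.8 FPKM in si-Control libraries 1 to 5. In si-*Fndc1* libraries 1 to 5 it had 172.4, 165.7, 166.5, 170.9 and 166.9 FPKM. Each si-*Fndc1* library was above each si-Control library. *Hsp90b1* rose from 144.1 ± 2.96 to 168.5 ± 2.96 FPKM (SD, n = 5 each), a log2 fold change of 0.23 (SE 0.03, edgeR adjusted p = 0.000104; exact permutation p = 0.00794). With the offset it was 0.07 (95% interval 0.02 to 0.13, edgeR adjusted p = 0.0657) and the call was lost, its transcripts being 43.8% GC, the lowest of the 10 genes. A gene annotated as a miRNA overlaps it on the same strand, with 8.3% of its mean count.

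*Herpud1* (ENSMUSG00000031770; chromosome 8, 95113066 to 95122005, plus strand) encodes an ER membrane protein of the degradation machinery. It had 54.6, 56.4, 52.9, 54.5 and 49.6 FPKM in si-Control libraries 1 to 5, and 60.0, 60.0, 63.3, 66.7 and 55.5 FPKM in si-*Fndc1* libraries 1 to 5. Of the si-*Fndc1* libraries 4 were above every si-Control library, and library 5 was inside their range. *Herpud1* rose from 53.6 ± 2.56 to 61.1 ± 4.18 FPKM (SD, n = 5 each), a log2 fold change of 0.20 (SE 0.05, edgeR adjusted p = 0.0158; exact permutation p = 0.0159), and 0.16 with the offset (edgeR adjusted p = 0.0360). Without si-*Fndc1* libraries 2, 3 and 4, which had the largest hepatocyte sums, it was 0.10 (edgeR adjusted p = 0.255) and the call was lost.

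**Figure D2:**
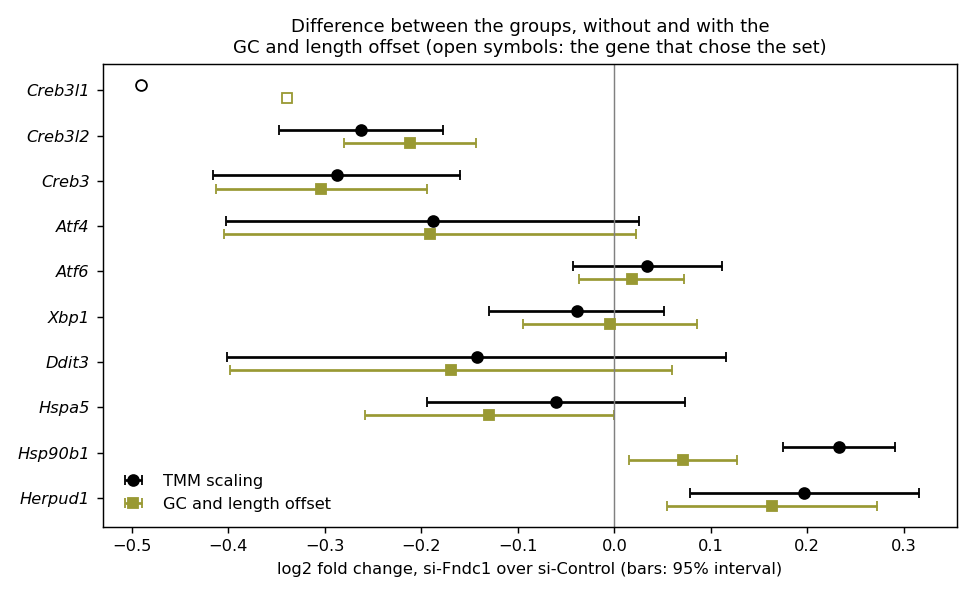
Log2 fold change of si-Fndc1 over si-Control (horizontal axis) for the 10 genes, without (black circles) and with (olive squares) the GC and length offset. Bars are 95% intervals over 5 libraries a group, and open symbols without bars mark Creb3l1, whose fall chose the set. The offset moved Hsp90b1 from 0.23 to 0.07 and Creb3l1 from −0.49 to −0.34 but left Creb3 near −0.30.

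The order of the levels per length changed at the top. In si-Control, *Hspa5* and *Hsp90b1* shared the top with means of 144.7 and 144.1 FPKM and overlapping libraries, while in si-*Fndc1* every library had more *Hsp90b1* than any had *Hspa5*. *Atf4* and *Creb3l1* came next and overlapped in si-Control, but not in si-*Fndc1*. *Creb3l1* lay above *Herpud1* in every si-Control library and overlapped with it in si-*Fndc1*, where their means were 62.5 and 61.1 FPKM. *Creb3* stood above *Xbp1* and *Atf6* in si-Control without overlap, and overlapped with both in si-*Fndc1*. *Xbp1* overlapped with *Atf6* and with *Ddit3* in both groups, *Atf6* and *Ddit3* overlapped in si-Control, and *Creb3l2* overlapped with *Ddit3* in si-Control alone.

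The genes differed in how much the libraries of a group spread. Log2 CPM is here the count scaled to the library's total as adjusted by edgeR's TMM scaling, so not per length. Its within-group SD was largest for *Ddit3* (0.206) and *Atf4* (0.172) and smallest for *Hsp90b1* (0.0273) and *Creb3l1* (0.0456). The median was 0.0806 over the 5358 tested genes in the same range of levels. *Hspa5* (0.104), *Creb3* (0.0958) and *Herpud1* (0.0908) were above that median, and *Xbp1* (0.0627), *Creb3l2* (0.0584) and *Atf6* (0.0512) were below it. The si-Control library with the most *Atf4*, library 1, had the least *Hspa5*, and library 5 had the reverse. In si-*Fndc1* the most *Atf4*, *Ddit3*, *Creb3l1* and *Herpud1* were all found in library 4.

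**Figure D3:**
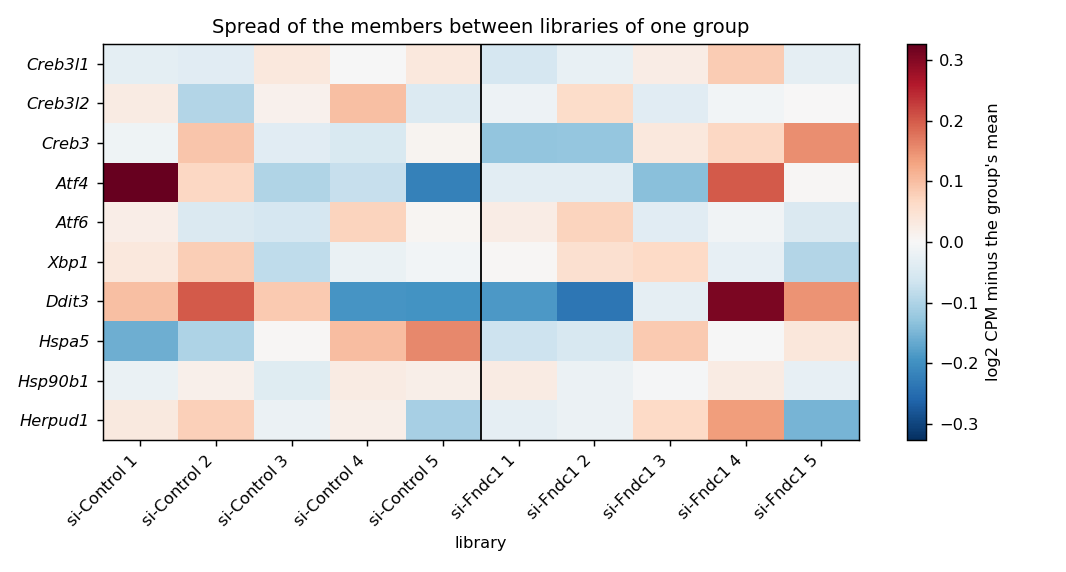
Heat map of log2 CPM of the 10 genes (rows) in the 10 libraries (columns), each minus the mean of its own group, so that the difference between the groups is removed. Red is above and blue below the group's mean, with Ddit3 and Atf4 showing the strongest colours and Hsp90b1 and Creb3l1 near white.

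Beside these genes, 26 further chaperones and folding enzymes of the ER were tested. Of these, 7 rose, 5 fell and 14 were not called (46.2% called, against 34.4% of all genes tested), with a median log2 fold change of 0.02. The co-chaperone gene *Dnajb9* (ERdj4) rose from 13.8 ± 0.742 to 17.8 ± 0.539 FPKM (log2 fold change 0.37, edgeR adjusted p = 0.000122), but not with the offset (0.02, edgeR adjusted p = 0.809). *Ppib*, the cyclophilin that helps collagen to fold, rose from 49.9 ± 3.31 to 64.9 ± 3.17 FPKM (log2 fold change 0.39, edgeR adjusted p = 0.000249), and was 0.44 higher with the offset (edgeR adjusted p = 0.000127). *Hyou1*, an HSP70-type chaperone, fell from 15.5 ± 0.558 to 12.8 ± 0.496 FPKM (log2 fold change −0.27, edgeR adjusted p = 0.000269; −0.12 and 0.00663 with the offset). With the offset the list had 3 higher and 6 lower, so the side with more calls turned, while 11.3% of all genes were called higher and 11.4% lower.

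Of 20 genes of ER-associated degradation, which returns misfolded protein to the cytosol, 19 were tested, 5 rose and 5 fell (52.6% called against 34.4% of all genes tested, median −0.03). With the offset 1 was higher and 6 were lower, against 11.3% and 11.4% of all genes. *Man1b1*, a mannosidase that marks glycoproteins for removal, fell from 17.1 ± 0.358 to 13.1 ± 0.370 FPKM (log2 fold change −0.38, edgeR adjusted p = 2.0e-05; −0.27 and 0.000287 with the offset). *Os9*, a lectin that reads that mark, fell from 81.1 ± 1.17 to 65.0 ± 2.78 FPKM (log2 fold change −0.31, edgeR adjusted p = 9.3e-05; −0.25 and 0.000775 with the offset). *Ubxn4* rose from 38.2 ± 0.664 to 42.7 ± 0.713 FPKM (log2 fold change 0.17, edgeR adjusted p = 0.000564), a call lost with the offset (0.06, edgeR adjusted p = 0.0750).

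Among 30 targets of ATF4 and the integrated stress response, 1 rose, 9 fell and 20 were not called, with a median log2 fold change of −0.11. The 33.3% called was near the 34.4% of all genes tested. By direction, 3.33% rose and 30% fell, against 17.3% and 17.2% of all genes tested. With the offset 1 was higher and 4 were lower, against 11.3% and 11.4% of all genes. Of these, *Nupr1* (higher, edgeR adjusted p = 0.0423) and *Nars* (lower, edgeR adjusted p = 0.0382) were not called without it. Both were named after their values were seen. The tRNA synthetase gene *Sars* fell from 65.8 ± 2.48 to 53.2 ± 2.63 FPKM (log2 fold change −0.30, edgeR adjusted p = 0.000318; −0.21 and 0.00665 with the offset). *Aars*, another synthetase, fell from 29.8 ± 1.18 to 25.0 ± 1.18 FPKM (log2 fold change −0.24, edgeR adjusted p = 0.00116), but was at 0.01 with the offset (edgeR adjusted p = 0.954). The amino acid transporter gene *Slc7a5* fell from 67.4 ± 6.17 to 49.5 ± 5.02 FPKM (log2 fold change −0.44, edgeR adjusted p = 0.00197; −0.30 and 0.0212 with the offset). The single gene that rose was the asparagine synthetase gene *Asns*, named after its value was seen (log2 fold change 0.29, edgeR adjusted p = 0.0256), and with the offset it was not called (0.17, edgeR adjusted p = 0.193).

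The translocon, signal peptidase and signal recognition genes, which bring nascent chains into the ER, had the highest median of the lists, 0.23 on the log2 scale. Of 23 tested, 12 rose, 4 fell and 7 were not called (69.6% called, against 34.4% of all genes tested, of which 17.3% rose and 17.2% fell). With the offset 22 could be tested, 8 were higher and 2 lower, against 11.3% and 11.4% of all genes, and the median was 0.07. *Tram1* rose from 24.5 ± 0.807 to 30.3 ± 0.520 FPKM (log2 fold change 0.32, edgeR adjusted p = 4.8e-05), but was not called with the offset (0.07, edgeR adjusted p = 0.156). *Spcs3*, a signal peptidase subunit, rose from 30.3 ± 1.18 to 38.2 ± 1.44 FPKM (log2 fold change 0.34, edgeR adjusted p = 9.1e-05), and has no value with the offset. *Sec62*, a translocation channel subunit, rose from 43.3 ± 1.22 to 55.0 ± 3.09 FPKM (log2 fold change 0.35, edgeR adjusted p = 0.000124; 0.16 and 0.00441 with the offset).

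Of 7 reported targets of CREB3-type factors, 2 rose and 4 fell (85.7% called, against 34.4% of all genes tested), with a median of −0.09 over genes too few to set apart from that share. Upper-quartile scaling gave 3 higher and 3 lower, and the offset 1 higher and 3 lower, where 22.7% of all genes were called. *Col1a1*, a collagen I chain and reported CREB3L1 target, fell from 375.4 ± 17.6 to 216.9 ± 9.78 FPKM (log2 fold change −0.78, edgeR adjusted p = 5.6e-06; −0.52 and 1.9e-05 with the offset). *Col1a2*, its partner chain, fell from 217.6 ± 11.6 to 170.0 ± 5.10 FPKM (log2 fold change −0.35, edgeR adjusted p = 0.000131), a call lost with the offset (−0.07, edgeR adjusted p = 0.210). *Arf4*, a Golgi GTPase gene and reported CREB3 target, rose from 46.2 ± 1.07 to 62.7 ± 1.23 FPKM (log2 fold change 0.45, edgeR adjusted p = 7.8e-06; 0.27 and 6.5e-05 with the offset).

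Of 7 death-related targets of DDIT3, 2 rose and 2 fell (57.1% called against 34.4% of all genes tested, median −0.12). The offset fit had 1 lower and none higher, against 11.4% and 11.3% of all genes. *Bbc3*, which encodes the pro-apoptotic protein PUMA, fell from 7.53 ± 0.536 to 5.36 ± 0.314 FPKM (log2 fold change −0.48, edgeR adjusted p = 0.000328; −0.25 and 0.0266 with the offset). *Ero1a*, an ER oxidase, rose from 8.14 ± 0.515 to 10.2 ± 0.557 FPKM (log2 fold change 0.34, edgeR adjusted p = 0.000854), a call lost with the offset (0.15, edgeR adjusted p = 0.0888). *Trib3*, a pseudokinase gene, fell from 18.6 ± 2.72 to 14.0 ± 2.49 FPKM (log2 fold change −0.40, edgeR adjusted p = 0.0366), a call also lost with the offset (−0.32, edgeR adjusted p = 0.0863). *Ero1a* and *Trib3* stand in other lists too.

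**Figure D4:**
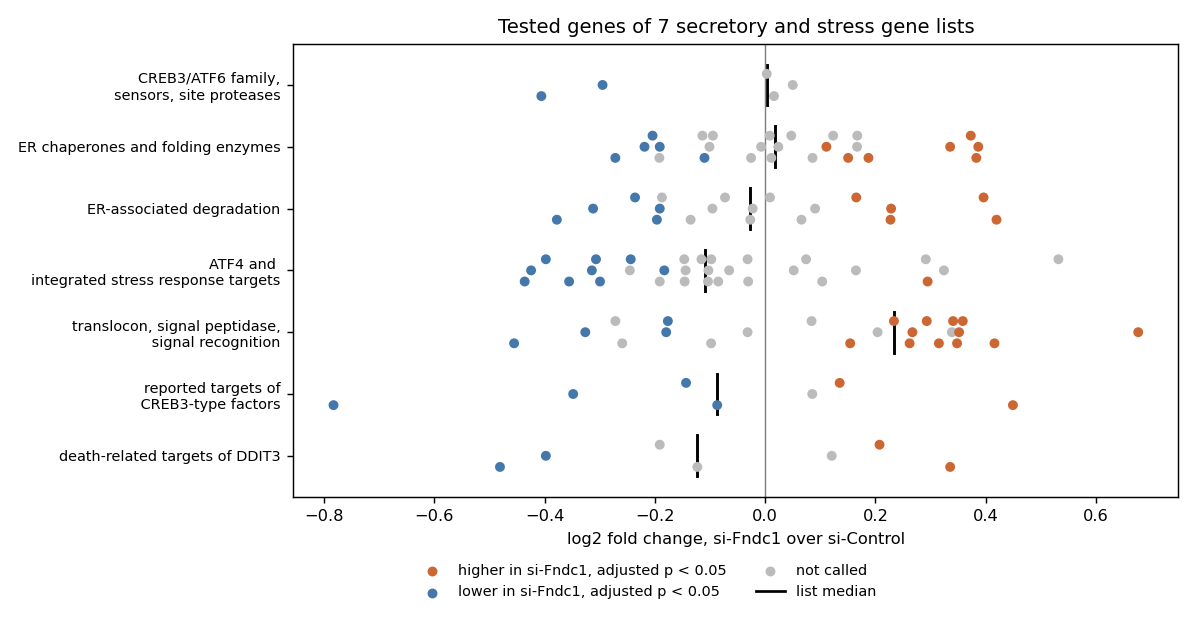
Log2 fold change of si-Fndc1 over si-Control (horizontal axis) for each tested gene of 7 lists (rows), without the offset. Colours mark genes called higher (orange), called lower (blue) or not called (grey), and black bars are list medians, from −0.12 for the DDIT3 list to 0.23 for the translocon list.

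The genes whose profile over the 10 libraries was most like that of *Creb3l1* were found by the root mean square distance of log2 CPM, each gene centred on its own mean. That profile includes the difference between the groups, so the fall of the genes found follows from how they were chosen. They were *Dda1* (distance 0.0376), *Ddr1* (0.0454), *Tob2* (0.0506), *Tsc22d4* (0.0510) and *Gpc1* (0.0515). Their means went from 21.8 to 15.9 FPKM for *Dda1*, from 31.7 to 23.4 for *Ddr1*, from 9.83 to 7.37 for *Tob2*, from 8.59 to 6.19 for *Tsc22d4* and from 384.5 to 283.4 for *Gpc1*. Of the other 9 genes of the set, *Creb3* was nearest (0.132), at rank 627 of 13547 genes, and *Creb3l2* came next (0.133), at rank 664. Their nearness likewise includes their own fall and is not a separate result.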

How the data were processed

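The members and gene lists were chosen with earlier results of these data known. The authors deposited, for each gene and library, counts without normalization and FPKM values, which stand at 0.0001 where the count is 0. FPKM is by its name a count per transcript length and library size. The second *Ddit3* identifier had 1 count in every library but 0.00118 to 0.0237 FPKM, a wider range than that of the library totals. For this identifier FPKM was therefore not a fixed scaling of the count. Sources differ on the pipeline: the paper's methods name TopHat, mm10 and htseq-count, the series text STAR and mm9, and the submitters' processing notes cutadapt 1.9, FastQC and GRCm39. How FPKM was computed and whether strand was used are not given in the sources used here. Within a group, counts differed beyond sampling noise in all 20 pairs of libraries. The paper names fewer libraries than the 10 deposited, so all were used.

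Genes averaging at least 0.5 FPKM over the 10 libraries were tested on the counts with edgeR 4.0.16 (quasi-likelihood, TMM, R 4.3.3), and p-values were adjusted by Benjamini-Hochberg over all 13548. The SE is the log2 fold change divided by the square root of F. FPKM differences had two-sided exact permutation tests. The offset used splines of 5 degrees of freedom in GC content (NCBIM37 transcripts) and length, fitted by Huber regression to log counts with 0.5 added. DESeq2 1.42.0 and limma 3.58.1 were alternatives, limma on log2(FPKM + 1). The edgeR test without the offset was tried on simulated counts with known fold changes, larger than those of the members called. The offset, the permutation tests and the motif search were not tried on simulated data. Named genes were the members, *Fndc1*, the sensor list, the 3 called genes with the smallest p-values of each other list, and the 5 genes most like *Creb3l1*. Python 3.11.15, numpy 2.4.6, pandas 2.3.3 and scipy 1.17.1 were used.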

Additional observations from a re-analysis of the deposited data

How the results depend on the processing

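No member's log2 fold change changed sign under the alternatives run. The 4663 genes called of 13548 became 2994 without the 3 si-*Fndc1* libraries highest in hepatocyte transcripts, a setting chosen after seeing the data. The GC and length offset could be fitted for 11185 genes, of which 4244 were called without it. With the offset 2538 were called, and 1647 with the offset and the replicate block together. DESeq2 called 5019 genes. Replicate numbers did not pair the libraries: same-number correlations of deviations were −0.055 to 0.064. With the replicate block alone 3572 genes and 4 of the 9 members were called. With the offset, and with the offset and the replicate block, the log2 fold change was −0.339 and −0.340 for *Creb3l1*, and 0.071 in both for *Hsp90b1* (edgeR adjusted p = 0.0657 and 0.184). Without the 3 libraries it was −0.536 for *Creb3l1* and 0.101 for *Herpud1* (edgeR adjusted p = 0.255). The offset fit called 5 targets of ATF4, 10 translocon genes and 1 DDIT3 target. These 5 include *Nars* and *Nupr1*, which were not called without the offset. The offset with the replicate block called 5 genes of ER-associated degradation, 4 targets of ATF4, 8 translocon genes, 3 targets of CREB3-type factors and 1 DDIT3 target. DDIT3 targets called were 2 without the low-level filter and 2 with the replicate block. Leaving out 1 library at a time gave 6 to 10 called targets of ATF4, 6 without si-Control library 3 or without si-*Fndc1* library 1, and 2 to 4 DDIT3 targets, 2 without si-Control library 2, 3 or 4 or si-*Fndc1* library 3 or 5. The cause of these changes was not tested. Fewer libraries also leave the test less power. Of the members, *Ddit3* had the fewest counts, 2080 in its lowest library.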
